A study of Mus musculus with 6 samples.

Results

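ABCE1, YAE1 and LTO1 are the 3 genes of the complex named in the title of the series, and they were found in the deposited table by their Ensembl identifiers: ENSG00000164163 (ABCE1), ENSG00000241127 (YAE1) and ENSG00000149716 (LTO1). All 3 of the 3 identifiers were present among 62492, and all 3 passed the filter on low values (a mean of at least 1 FPKM over the libraries), as did 12578 genes in all. FPKM are fragment numbers divided by gene model length and by library total. The libraries came from A375, an established human melanoma cell line, transduced with lentivirus carrying Cas9 and a guide RNA, selected with puromycin at 10 µg/mL and collected 7 days after selection. There were 2 libraries of cells with guides against ABCE1, 2 of cells with guides against YAE1, and 2 of cells with irrelevant guides against LacZ or Luciferase. No library had guides against LTO1. All cells thus carried Cas9, a guide and the selection marker. The labels call both targeted groups knockouts, but the genotype field of the second library of each carries a gene name ending in 2 (Abce2, Yae2), unlike its title, so the groups follow the titles. They do not say whether the cells were clones or pools, which guide each library carried, or whether the libraries of a group came from separate cultures. The p-values below thus cover the spread from library to library alone, and part or all of it may be technical. The organism is entered as Mus musculus, but the cell type is entered as human and all identifiers are human.

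ABCE1 is an ATPase with iron-sulfur clusters that separates ribosomal subunits at the end of translation, so that they can be used again. Cytosolic iron-sulfur proteins receive their clusters from the CIA machinery (cytosolic iron-sulfur protein assembly). In yeast, Yae1 and Lto1 form an adaptor that brings this machinery to the ABCE1 homologue Rli1: Yae1 contacts Rli1, and Lto1 contacts the machinery. ABCE1 is thus the client, and YAE1 and LTO1 are the parts of its adaptor. LTO1 is also known as ORAOV1, a name it received from its overexpression in oral cancers. The protein and promoter sequences of the 3 human genes were not used here.

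The depth worked out from the FPKM steps was 15713011 to 18399717.5 assigned fragments per library, and the 2 libraries within each group correlated at r = 0.992 to 0.994 over 12578 genes. With 2 libraries a group, it could not be told whether one of them stood apart. Melanoma markers were not analysed here, because the table gives no gene names, so the labelled cell type was not checked.

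ABCE1, the client, had the lowest RNA level in the libraries with guides against it. It was measured at 23.1 and 23.7 FPKM in the libraries with ABCE1 guides, against 48.5 and 49.1 FPKM in the control libraries. The groups did not overlap, as in 30.9% of tested genes in this direction, and the level with ABCE1 guides was 47.9% of the control level. The log2 change of (FPKM + 1), the scale of all tests here, was -1.03 ± 0.07 (SE, limma adjusted p = 5.6e-05, Benjamini-Hochberg over 12578 genes), with a 95% interval of -1.19 to -0.87. Of all tested genes, 57.9% were called in this comparison and 20.4% were called lower, so a call alone sets few genes apart. The size of the change was less common: 191 of 12578 genes (1.52%) had a lower log2 change than ABCE1. The ABCE1 level thus goes with the labels of these 2 libraries. In FPKM, which divides by library total, its replicates agreed within counting error. The values rested on 2265.5 and 2619.5 recovered fragments with ABCE1 guides and 5585.5 and 5404 in the controls (counting errors of 1.34% to 2.1%, which cover counting only). Gene-level FPKM does not show whether the remaining ABCE1 RNA carried edits.

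YAE1, the adaptor subunit that contacts the ABCE1 homologue in yeast, was not lower in the libraries with guides against it. It was measured at 10.3 and 11.6 FPKM in the libraries labelled YAE1, against 9.99 and 10.6 FPKM in the control libraries. The first library labelled YAE1 lay between the 2 controls, so the groups overlapped. The mean was 10.9 ± 0.896 FPKM in the libraries labelled YAE1 and 10.3 ± 0.425 FPKM in the controls (SD, n = 2 each). The log2 change was 0.08 ± 0.07 (SE, limma adjusted p = 0.35), with a 95% interval of -0.08 to 0.24. On the deposited scale, a fall below -0.08 lies outside that interval, as does one of the size seen for ABCE1 under its own guides. Centring each library on its median gene turned the sign, to -0.017 ± 0.064 (SE, limma adjusted p = 0.85). The bound of -0.08 thus does not carry over to the centred scale. The YAE1 RNA level therefore does not check the labels of the libraries labelled YAE1, and every direction given for them rests on the titles. Protein was not measured here.

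With ABCE1 guides, YAE1 stood slightly above the controls. It was measured at 11.8 and 12.3 FPKM in the libraries with ABCE1 guides, against 9.99 and 10.6 FPKM in the controls, with no overlap, as in 50.6% of tested genes in this direction. The log2 change was 0.21 ± 0.07 (SE, 95% interval 0.05 to 0.37) and passed the threshold (limma adjusted p = 0.034). Of all tested genes, 37.5% were called higher in this comparison, and 39.2% had a higher log2 change than YAE1. The call was lost with each scaling alternative (log2 change 0.071 with centring and 0.071 with quantile normalization, limma adjusted p = 0.37 and 0.39), with no filter on low values (limma adjusted p = 0.099) and without either library of either group (log2 change 0.17 to 0.25, limma adjusted p = 0.063 to 0.16). The median log2 change of all tested genes was 0.098, and relative to it YAE1 lay at 0.11.

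LTO1, the adaptor subunit that contacts the CIA machinery in yeast, was higher in both targeted groups, although no guide was directed at it. It was measured at 5.84 and 5.97 FPKM in the libraries with ABCE1 guides, against 3.09 and 2.98 FPKM in the control libraries. These groups did not overlap, as in 50.6% of tested genes in this direction. Their means were 5.9 ± 0.0952 FPKM with ABCE1 guides and 3.04 ± 0.076 FPKM in the controls (SD, n = 2 each), a ratio of 1.94. The log2 change was 0.77 ± 0.06 (SE, limma adjusted p = 9.8e-05), with a 95% interval of 0.63 to 0.92. Because of the pseudocount of 1, this understates the change of a gene at 3 FPKM: with a pseudocount of 0.1 it was 0.94. Of all tested genes, 37.5% were called higher with ABCE1 guides, and 7.82% had a higher log2 change there than LTO1 had.

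In the libraries labelled YAE1, LTO1 was measured at 4.41 and 4.36 FPKM, against the same controls at 3.09 and 2.98 FPKM. Again the groups did not overlap, as in 49.8% of tested genes in this direction, and the ratio of the means was 1.44. The log2 change was 0.42 ± 0.06 (SE, limma adjusted p = 0.0016), with a 95% interval of 0.27 to 0.56. Of all tested genes, 51.8% were called in this comparison and 34.2% were called higher, and 18.3% had a higher log2 change than LTO1. Both comparisons use the same 2 control libraries, so the 2 rises of LTO1 are not independent of each other, and 26.2% of tested genes were called higher in both.

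ABCE1 was also lower in the libraries labelled YAE1. It was measured at 33.7 and 38.8 FPKM there, against 48.5 and 49.1 FPKM in the controls, with no overlap, as in 27.9% of tested genes in this direction. The level was 74.2% of the control level. The log2 change was -0.42 ± 0.07 (SE, limma adjusted p = 0.0025), with a 95% interval of -0.58 to -0.26. Of all tested genes, 17.6% were called lower in this comparison, 12.8% were called lower in both targeted groups, as ABCE1 was, and 8.82% had a lower log2 change than ABCE1. The 2 libraries labelled YAE1 differed from each other by more than counting allows: the first held 3540.5 recovered fragments, or 33.7 FPKM with an exact 95% Poisson interval of 32.6 to 34.8, and the second 4138.5 fragments, or 38.8 FPKM with an interval of 37.6 to 40.0. Their coefficient of variation was 9.97%, beside a counting error of 1.61%. Without the first of these libraries the log2 change was -0.32, and without the second it was -0.52. The call held either way.

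**Figure D1:**
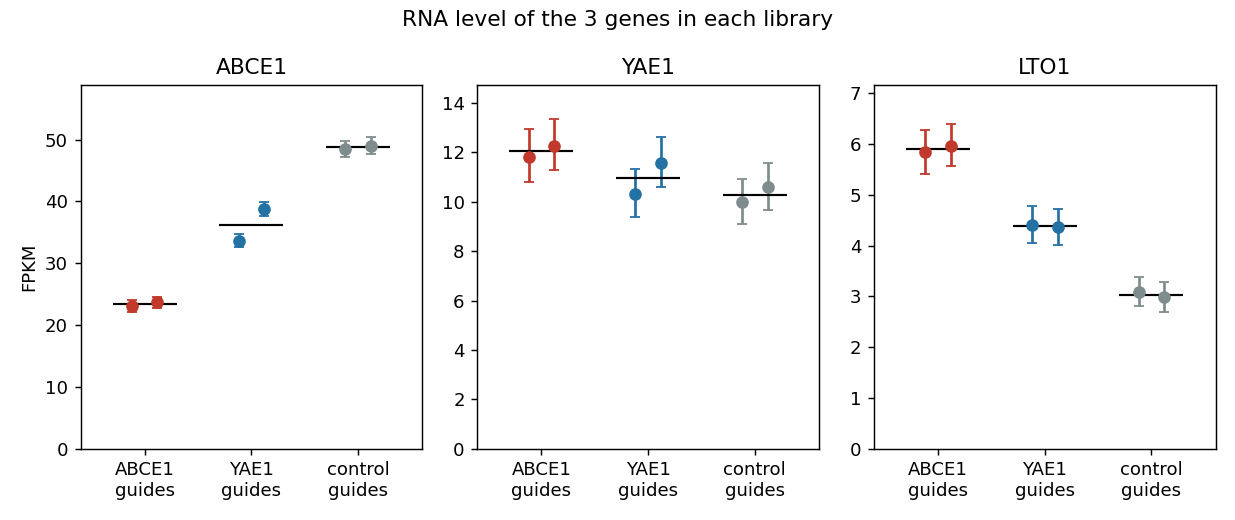
RNA level of ABCE1, YAE1 and LTO1 (FPKM, each panel from 0) in the 2 libraries of each group. Points are libraries with exact 95% Poisson intervals from the recovered fragments, which cover counting only, and lines are group means. ABCE1 lies at 23.1 to 23.7 FPKM with ABCE1 guides, 33.7 to 38.8 FPKM with YAE1 guides and 48.5 to 49.1 FPKM with control guides. LTO1 runs the other way, and the YAE1 panel shows overlap of YAE1 guides with control guides.

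The third comparison set the libraries labelled YAE1 directly against those with ABCE1 guides, and asked whether the 2 kinds of guide differ in their effect on the 3 genes. ABCE1 was higher, at 33.7 and 38.8 FPKM in the libraries labelled YAE1, against 23.1 and 23.7 FPKM with ABCE1 guides (log2 difference 0.61 ± 0.07, SE, 95% interval 0.45 to 0.77, limma adjusted p = 0.0028). LTO1 was lower, at 4.41 and 4.36 FPKM in the libraries labelled YAE1, against 5.84 and 5.97 FPKM with ABCE1 guides (log2 difference -0.36 ± 0.06, SE, 95% interval -0.50 to -0.22, limma adjusted p = 0.0071). For both genes the libraries of these 2 groups did not overlap, as in 33.4% of tested genes in the direction of ABCE1 and 36.8% in that of LTO1. YAE1 was measured at 10.3 and 11.6 FPKM in the libraries labelled YAE1, against 11.8 and 12.3 FPKM with ABCE1 guides. Its groups did not overlap either, but the log2 difference of -0.13 ± 0.07 (SE, 95% interval -0.29 to 0.03) did not pass (limma adjusted p = 0.18). Of all tested genes, 34% were called in this comparison, made up of 15.3% called higher and 18.7% called lower. This balance turned with the scaling: the share of calls in the higher direction was 45.1% as deposited, 56.0% with centring and 54.0% with quantile normalization. The ABCE1 difference stood far out, with 1.18% of tested genes having a higher one, and the LTO1 difference less so, with 11.2% having a lower one. ABCE1 is itself the gene targeted in the libraries with ABCE1 guides, whereas LTO1 was not targeted.

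Seen over the 3 groups, ABCE1 and LTO1 had opposite orders without overlap between any groups. ABCE1 was lowest with ABCE1 guides, intermediate in the libraries labelled YAE1 and highest in the controls, an order without overlap that 8.53% of tested genes showed. LTO1 was highest with ABCE1 guides, intermediate in the libraries labelled YAE1 and lowest in the controls, an order that 18.2% of tested genes showed. The change in the libraries labelled YAE1 was 41.1% of that with ABCE1 guides for ABCE1 and 53.7% for LTO1, on the log2 scale and given as a description. YAE1 was highest with ABCE1 guides, while the libraries labelled YAE1 and the controls overlapped and did not differ beyond their spread.

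**Figure D2:**
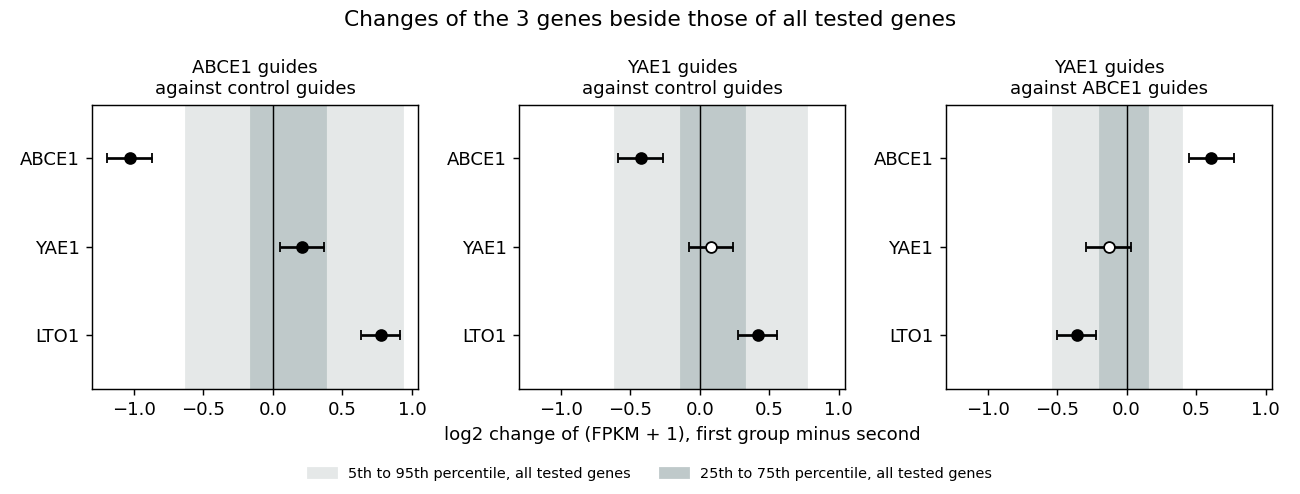
Log2 change of (FPKM + 1) of the 3 genes in each comparison, first group minus second (points, filled where limma's adjusted p was under 0.05), with 95% intervals from limma. Light and dark bands span the 5th to 95th and the 25th to 75th percentile of 12578 tested genes. ABCE1 lies left of the light band with ABCE1 guides (-1.03), while LTO1 lies inside the light band in each comparison (0.77, 0.42 and -0.36).

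The scaling of the libraries bears on these changes, since many more genes were called higher than lower against the controls. Centring each library on its median gene moved the median log2 change of all tested genes by -0.14 with ABCE1 guides and by -0.10 in the libraries labelled YAE1, and turned the share of calls that were higher to 45.5% and 49.1%, against 64.8% and 66.0% on the authors' scale. Relative to the median gene, ABCE1 lay at -1.13 with ABCE1 guides and at -0.52 in the libraries labelled YAE1. LTO1 lay at 0.68 and 0.32 on the same footing. All 4 of these changes kept their direction and their call with centring and with quantile normalization. FPKM does not measure RNA per cell, and fewer cells with a transcript cannot be told apart from less of it per cell.

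Ratios of FPKM between the 3 genes within a library do not change when all values of the library are multiplied by a common factor. Quantile normalization is not such a factor. The ratio of ABCE1 to LTO1, client to adaptor subunit, was 3.95 and 3.97 in the libraries with ABCE1 guides and 7.64 and 8.89 in the libraries labelled YAE1, against 15.7 and 16.5 in the controls. The 3 groups were separate, with means of 3.96 ± 0.0111, 8.26 ± 0.885 and 16.1 ± 0.523 (SD, n = 2 each) in the same order. The ratio of ABCE1 to YAE1 was 1.95 and 1.93 with ABCE1 guides and 3.26 and 3.35 in the libraries labelled YAE1, against 4.86 and 4.63 in the controls. The ratio of YAE1 to LTO1, within the adaptor, was 2.03 and 2.06 with ABCE1 guides and 2.34 and 2.66 in the libraries labelled YAE1, against 3.23 and 3.55 in the controls. Each ratio was lowest with ABCE1 guides and highest in the controls. The third ratio follows from the other two, and the ratios are given as a description, with no test and no background over other genes.

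**Figure D3:**
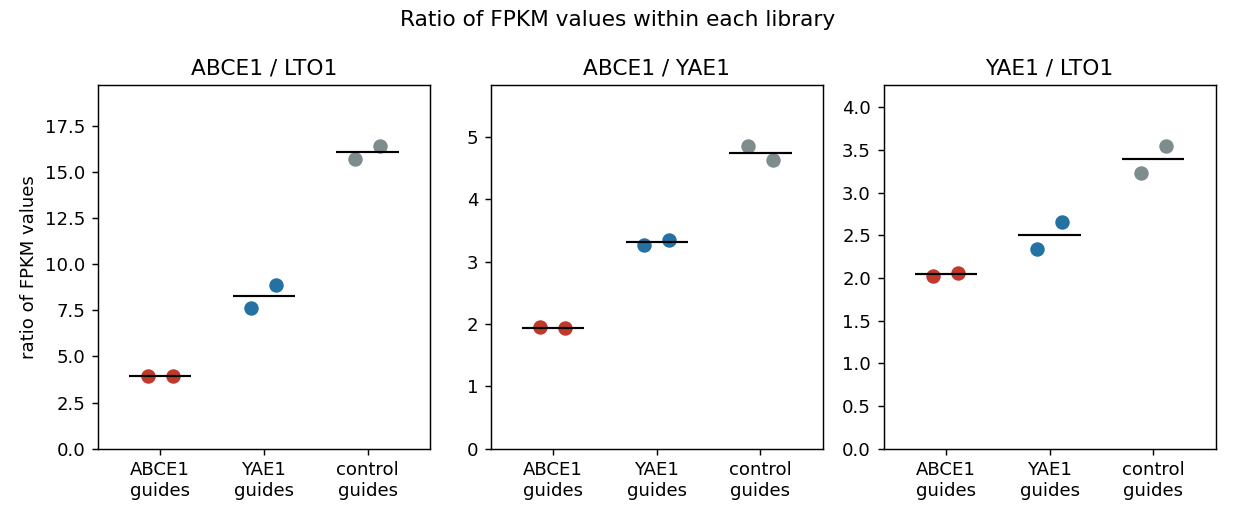
Ratio of FPKM values between pairs of the 3 genes within each library (points, each panel from 0), with group means as lines, for ABCE1 guides, YAE1 guides and control guides. The ABCE1 / LTO1 ratio is 3.95 to 3.97 with ABCE1 guides, 7.64 to 8.89 with YAE1 guides and 15.7 to 16.5 with control guides.

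Per length, ABCE1 was the most abundant of the 3 and LTO1 the least in each of the 6 libraries. In the controls ABCE1 exceeded 93.5% and 93.6% of tested genes in FPKM, YAE1 65.5% and 67.4%, and LTO1 32.9% and 31.9%. With ABCE1 guides ABCE1 exceeded 84.1% and 84.5% of tested genes, YAE1 67.6% and 68.5%, and LTO1 47.1% and 48.1%. In the libraries labelled YAE1 the shares were 89.9% and 91.9% for ABCE1, 64.9% and 68.2% for YAE1, and 40.0% and 39.5% for LTO1. FPKM depends on the gene model: the smallest lengths that account for the values were 6254 bases for ABCE1, 2560 bases for YAE1 and 7872 bases for LTO1. A long model lowers the FPKM of a gene if its main transcript is shorter, which can affect the order of the 3 genes and, through the pseudocount, shrink a change on the log2(FPKM + 1) scale. Neither the transcripts behind these models nor the use of strand in counting is given in the sources used here.

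Counting error was larger for YAE1 and LTO1, which had fewer fragments than ABCE1. YAE1 rested on 444 to 556 recovered fragments per library (counting errors of 4.24% to 4.75%), and LTO1 on 413.5 to 831.5 (3.47% to 4.92%). The LTO1 replicates varied by 0.743% to 2.5% within groups, no more than counting allows. The YAE1 replicates varied by 2.69% with ABCE1 guides, 8.19% in the libraries labelled YAE1 and 4.13% in the controls. For both ABCE1 and YAE1 the widest spread was thus in the libraries labelled YAE1, and in each case the second of these libraries was the higher one.

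Genes with the most similar patterns were sought by Pearson's correlation of log2(FPKM + 1) over the 6 libraries, among genes averaging 5 FPKM or more. For ABCE1, 217 of 7046 genes (3.08%) reached r = 0.95, for LTO1 801 of 7047 (11.4%), and for YAE1 44 of 7046 (0.624%). The 6 points share libraries and fall into 3 groups, so these values describe likeness only. Nearest to ABCE1 were ENSG00000072786 (r = 0.999) and ENSG00000182492 (r = 0.998). ENSG00000182492 was measured at 2.98 ± 0.27 FPKM with ABCE1 guides and 6.55 ± 0.861 FPKM in the libraries labelled YAE1, against 10.1 ± 0.0561 FPKM in the controls (SD, n = 2 each). ENSG00000072786 changed less, at 8.86 ± 0.147 and 10.4 ± 0.336 FPKM in the same targeted groups, against 11.8 ± 0.0452 FPKM in the controls.

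Nearest to LTO1 were ENSG00000044574 and ENSG00000090054 (r = 0.999 each). ENSG00000044574 was measured at 421 ± 7.29 FPKM with ABCE1 guides and 332 ± 0.427 FPKM in the libraries labelled YAE1, against 255 ± 0.805 FPKM in the controls (SD, n = 2 each). Its log2 change was 0.72 with ABCE1 guides, against 0.77 for LTO1, at a far higher level. The 2 values are not on an equal footing, because the pseudocount of 1 shrinks the change of LTO1 (0.94 with a pseudocount of 0.1) and hardly that of a gene at 255 FPKM. ENSG00000090054 was at 25.8 ± 0.209 and 22.4 ± 0.0988 FPKM in the same targeted groups, against 18.9 ± 0.0873 FPKM in the controls. The table gives no names for these 4 identifiers, and none is given here.

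**Figure D4:**
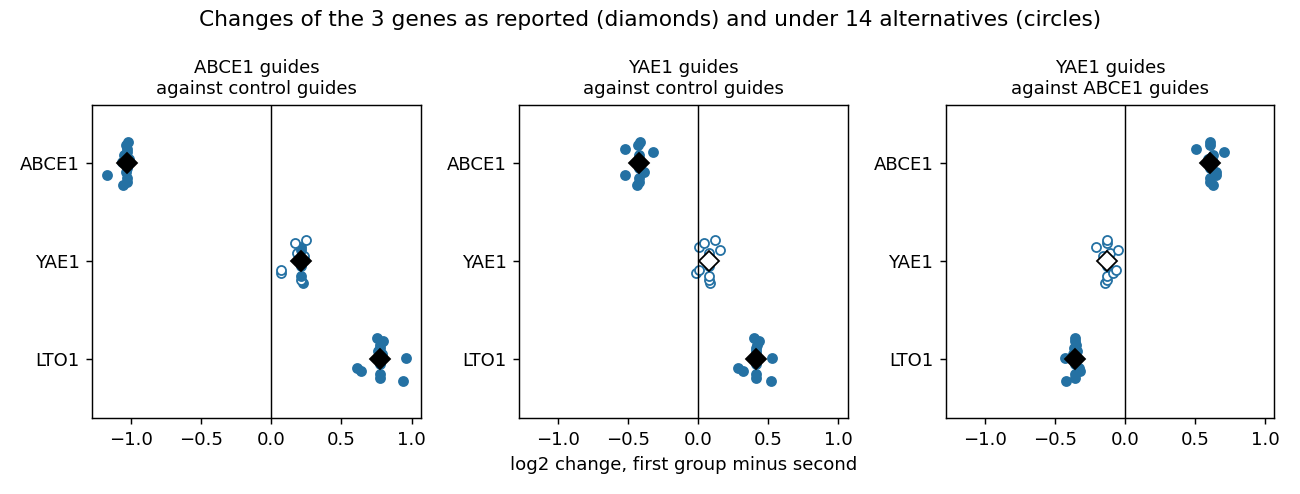
Log2 change of the 3 genes in each comparison, first group minus second, as reported (diamonds) and under 14 alternatives of scaling, filter, pseudocount, model and left-out library (circles). Filled symbols have a limma adjusted p under 0.05. The ABCE1 and LTO1 symbols are filled throughout, while those of YAE1 lie near 0 and are filled in part with ABCE1 guides only.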

How the data were processed

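The members and lists were chosen with earlier results of these data known. The authors deposited 1 table of FPKM values with a column per library. Build GRCh37 is named in the submitters' processing notes. For the aligner, the counter and the annotation, nothing is given in the sources used here. Libraries were grouped by title. All 62492 identifiers are human Ensembl identifiers without symbols, and 0 matched the mouse reference supplied, so the lists of iron-sulfur assembly, ribosome recycling, neighbour and marker genes were not analysed here. The 3 genes are named by the rule that chose them. Other genes were named by likeness to a member, limited to 2 identifiers that fell and 2 that rose.

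Low FPKM values of a gene are whole multiples of 1 step. From these the library totals and fragments per gene were worked out for 38267 of 38269 genes above 0 (tolerance 2e-05), and they add up to at least 99.4% of the totals. The smallest step was taken as 1 read of a pair, or 0.5 fragments, and each gene's numbers are known up to 1 common factor. Counting errors and Poisson intervals depend on this.

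The test was limma (version 3.58.1, R version 4.3.3) on log2(FPKM + 1) (group means, 6 libraries in 1 fit, eBayes with trend, 3 residual degrees of freedom and 3.62 from moderation, Benjamini-Hochberg over 12578 genes, threshold 0.05). The recovery of fragment numbers and a limma fit of the same form were tested on simulated data. In the simulation for the fit few genes changed, unlike in these libraries. The alternatives listed next were not tested in this way. Alternatives were another pseudocount, filters, centring, quantile normalization, voom on recovered fragments, the 4 libraries compared, a replicate block and leaving out each library.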

Additional observations from a re-analysis of the deposited data

Results flagged for a closer look

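ABCE1 changed by different amounts in the 2 targeted groups: its change in the libraries labelled YAE1 minus its change with ABCE1 guides was 0.61 on the log2 scale (limma adjusted p = 0.0028), with -0.42 in the libraries labelled YAE1 and -1.03 with ABCE1 guides. LTO1 also differed between them: its change in the libraries labelled YAE1 minus its change with ABCE1 guides was -0.36 (limma adjusted p = 0.0071), with 0.42 in the libraries labelled YAE1 and 0.77 with ABCE1 guides. Both values are those of the third comparison above, and ABCE1 is itself the target in the group with ABCE1 guides. With 2 libraries per group, single outlying samples were not looked for.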

How the results depend on the processing

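Each change of the 3 genes was recomputed under 14 alternatives, and 118 of 126 values kept their sign and their side of the threshold, among them all of ABCE1 and LTO1. Some alternatives leave a log2 change as it is by construction and can move only its call. These are the filters, the replicate block, the fit of the 4 libraries compared and leaving out a library of the group not compared. The call of YAE1 as higher with ABCE1 guides (0.21) was lost with no filter (0.21), centring (0.071), quantile normalization (0.071) and without either ABCE1 or either control library. Its change in the libraries labelled YAE1 turned to -0.017 with centring. Leaving out 1 library at a time, YAE1 ranged from 0.17 to 0.25 with ABCE1 guides, from 0.0037 to 0.16 in the libraries labelled YAE1 (0.08 as reported) and from -0.21 to -0.052 between the targeted groups (-0.13 as reported). The genes called with ABCE1 guides (7278) fell to 4763 with a filter of 5 FPKM, which tests fewer genes. The genes that differed between the targeted groups (4279) fell to 2091 with no filter and ranged from 1811 to 3721 with 1 library left out, with 1811 without ABCE1 replicate 1 and 1963 without ABCE1 replicate 2. The cause was not tested.

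With the replicate number as a block, no call of the 3 genes changed (YAE1 with ABCE1 guides, limma adjusted p = 0.022) and the genes called were 7058 with ABCE1 guides, 6264 in the libraries labelled YAE1 and 3778 between them. Same-numbered libraries did not deviate together over all tested genes (correlations of -0.053 to -0.0093). This gives no sign of a pairing by number but cannot exclude that they were prepared together. With 2 libraries per group and 444 to 556 fragments, a change of YAE1 as small as 0.08 was not detectable.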
